A study of Mus musculus with 20 samples.

Results

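The Dppa genes (developmental pluripotency associated) share a name given for their expression in early embryos and pluripotent cells. Their members here were Dppa2, Dppa3, Dppa4 and Dppa5a. They were taken as every probe set annotated to one of these symbols, which gave 5 probe sets of 4 genes, among 45101 probe sets and 18193 tested genes on each array. Dppa2 had 2 probe sets, 1429654_at and 1453223_s_at, and the first, with the higher mean over all arrays, stands for the gene. Dppa3 was read by 1424295_at, Dppa4 by 1429597_at and Dppa5a by 1416552_at.

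Dppa2 and Dppa4 are related nuclear proteins with a SAP domain, a DNA-binding fold. They bind each other, occupy CpG-rich promoters in pluripotent cells and can switch on genes of the early embryo's first genome activation. Dppa3 is also called Stella or PGC7. It marks primordial germ cells, is deposited in the egg, and lowers DNA methylation by binding Uhrf1, the protein that guides the maintenance methyltransferase Dnmt1. Dppa5a, also called Esg1, is an RNA-binding protein of the KH-domain family that includes the egg proteins Ooep and Khdc3. The group therefore shares a name more than a biochemical function.

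The study compared cells of the male germ line with pluripotent cells grown from them, in 20 mouse samples on one array each. Germline stem cells (GSC, 3 arrays) came from testes of the OG2 strain, B6;CBA-Tg[Pou5f1-EGFP]2Mnn/J, in which GFP is driven by the Oct4 promoter. They were kept on mitomycin C-inactivated embryonic fibroblasts in medium with GDNF, bFGF, EGF and LIF. Germline pluripotent stem cells (gPS, 5 arrays) derived from these GSC: about 1000 cells per well were left on fibroblasts without passage, and bright round GFP colonies that appeared after 3 to 4 weeks were expanded in embryonic stem cell medium. Whether the 5 gPS samples were separate lines, 1 clone or pools is not given in the sources used here. Embryonic stem cells (ESC, 3 arrays) were of the RW4 line, on fibroblast feeder cells with LIF. ESC-like cells (ESC_like, 3 arrays) had been grown by another laboratory from the testes of mice at postnatal day 0 to 2 and were also kept on feeder cells with LIF. Neural stem cells (NSC, 3 arrays) had been made from Olig2-GFP embryonic stem cells, and embryonic fibroblasts (MEF, 3 arrays) were prepared from C3H embryos at E12.5. Strain, promoter transgene and laboratory thus differ between groups along with cell type, and their parts cannot be told apart.

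Levels are log2 intensities, so that a difference of 1 is 2-fold. They ran from 2.04 to 14.59, with a median of 4.97 over all values. A level near or under that median may be background, and a fold taken from it is then a rough size. Array medians lay between 4.94 and 5.04. Each array's mean correlation with the rest of its group was lowest in gPS replicate 1, at 0.979, and at most 0.997. The actin control probe sets for the 3' and 5' ends differed by 1.25 (log2) in GSC replicate 1. In the other arrays they differed by 0.12 to 0.57. The part of RNA quality in the GSC values was not tested. The markers fixed for each label were highest in the groups they mark (Dazl at 12.21 in GSC, Nanog at 11.66 in gPS, Fabp7 at 13.30 in NSC, Col1a1 at 11.99 in MEF, as mean log2 levels), apart from Sox1, which in NSC stood at 4.28, under the median of all values. Sox2, a marker fixed for pluripotent cells, was also high in NSC arrays, at 11.35 to 11.49 against 11.35 to 12.07 in gPS arrays. Because the labels name no separate cultures or animals, the p-values reflect only how much these samples vary, which may be technical. The number of arrays limits the precision. A lower level in such mixed cultures can come from fewer cells of a type or from less RNA per cell, which cannot be told apart.

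Dppa2 was near background in the somatic cells, low in GSC and high in all 3 kinds of pluripotent cell. Its log2 levels were 6.48, 6.24 and 6.28 in the GSC arrays. In gPS arrays 1 to 5 they were 11.39, 10.85, 10.68, 10.59 and 10.62. The ESC arrays gave 11.39, 11.16 and 11.44, and the ESC_like arrays 11.82, 11.56 and 11.60. Every pluripotent array lay above every GSC array by more than 4 log2 units, and the gPS arrays were the lowest of the pluripotent ones except for gPS replicate 1, which fell inside the ESC range. The NSC arrays gave 4.76, 3.82 and 3.62 and the MEF arrays 3.78, 3.69 and 3.68. These somatic values overlapped each other, lay under the median of all values and were all below GSC.

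The second Dppa2 probe set followed the first, with a Pearson r of 0.996 over the 20 arrays. Its log2 levels in gPS arrays 1 to 5 were 11.61, 11.06, 10.79, 10.81 and 10.64, against 11.59, 11.67 and 11.67 in ESC. Here too gPS replicate 1 was the highest gPS array and the only one to reach the ESC values. Its GSC arrays stood at 6.00, 6.37 and 6.34, and its highest somatic array at 3.26.

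Dppa4, the partner of Dppa2, was already well expressed in GSC. Its log2 levels were 9.19, 9.39 and 9.27 in GSC and 10.82, 11.20, 10.99, 10.92 and 11.01 in gPS arrays 1 to 5. In ESC they were 11.31, 11.25 and 11.21, and in ESC_like cells 10.84, 10.84 and 10.80. All pluripotent arrays lay above all GSC arrays, and the gPS arrays lay just below the ESC arrays, the nearest values being 11.20 and 11.21. The somatic cells were far lower, at 4.04, 4.32 and 3.95 in NSC and 5.10, 4.74 and 4.87 in MEF, which did not overlap each other.

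Dppa5a was close to the top of the intensity scale in every pluripotent array. Its log2 levels were 9.24, 9.55 and 9.76 in GSC and 14.16, 13.95, 14.12, 14.10 and 14.02 in gPS arrays 1 to 5. ESC arrays gave 13.91, 13.91 and 13.94, and ESC_like arrays 13.90, 13.91 and 13.85. The pluripotent groups spanned 0.31 log2 units in all and stood far above GSC, with every gPS array above every ESC and ESC_like array. That margin was small (13.95 against 13.94), and the highest value of any probe set on an array was 14.28 to 14.59. How far differences are compressed at such levels was not tested. NSC arrays gave 5.24, 5.10 and 5.54 and MEF arrays 5.42, 5.54 and 5.70, overlapping each other near the median of all values.

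Dppa3 had another order of groups. Its log2 levels were 8.44, 8.55 and 8.42 in GSC and 7.90, 7.85 and 7.95 in ESC, so that every germline stem cell array was above every embryonic stem cell array. ESC_like arrays gave 9.32, 9.45 and 9.22, above both. In gPS arrays 2 to 5 the levels were 11.11, 11.60, 11.70 and 11.66, the highest of the series. In gPS replicate 1 it was 7.62, below every other gPS array, every GSC array and every ESC array. NSC arrays gave 4.52, 4.42 and 5.22 and MEF arrays 4.71, 4.45 and 4.37, which overlapped each other and lay below all other arrays.

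**Figure D1:**
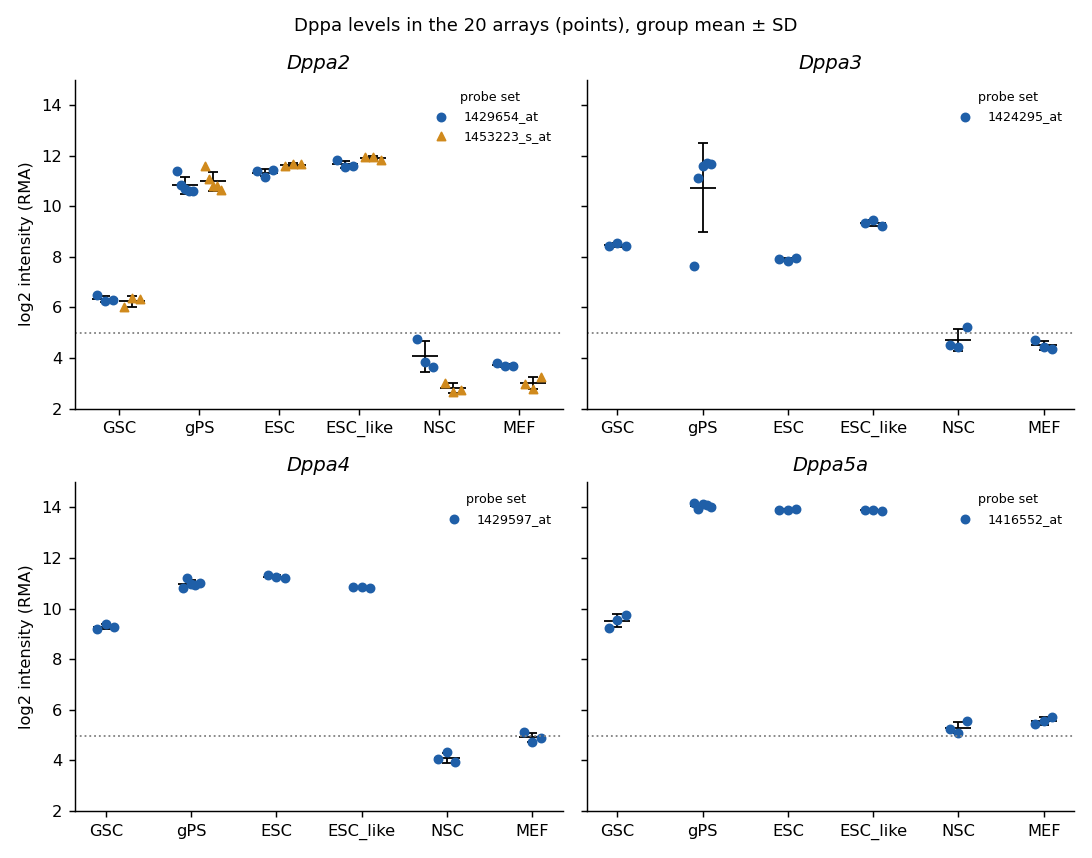
Log2 intensity of each Dppa gene (vertical axis) in the 20 arrays, by group (horizontal axis), 1 point per array in replicate order, with the group mean and its SD as bars. Triangles are the second Dppa2 probe set and the dotted line is the median of all values, 4.97. The gPS point at 7.62 for Dppa3 is replicate 1, while Dppa2, Dppa4 and Dppa5a show no such gap.

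By group means, the order for Dppa2 was ESC_like, ESC, gPS, GSC, NSC and MEF, with overlapping arrays between ESC and gPS and between NSC and MEF. For Dppa4 it was ESC, gPS, ESC_like, GSC, MEF and NSC, with overlap between gPS and ESC_like. For Dppa5a it was gPS, ESC, ESC_like, GSC, MEF and NSC, with overlap between ESC and ESC_like and between MEF and NSC. For Dppa3 it was gPS, ESC_like, GSC, ESC, NSC and MEF, with overlap between gPS and ESC_like, through gPS replicate 1 alone, and between NSC and MEF. Levels of different probe sets are not on a common scale, so the order of genes within a sample is not given.

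The first comparison asked how the family differed between pluripotent gPS cells and the GSC they grew from. Group means were fitted with limma over all arrays, and genes counted as called if they differed at least 2-fold with an adjusted p under 0.05 (Benjamini-Hochberg, over 18193 genes). All 4 members were called higher in gPS cells, in a comparison in which 20.0% of all genes were called and 9.10% were called higher. Dppa5a rose by 4.55 ± 0.12 on the log2 scale (SE, 5 arrays against 3), or 23.5-fold, with limma's adjusted p = 1.11e-17. Dppa2 rose by 4.49 ± 0.20 (SE), or 22.5-fold, with limma's adjusted p = 1.02e-13. Both therefore moved up from a level in GSC far under the pluripotent one. Dppa5a came to about the ESC level, and Dppa2 to a mean of 10.83 (log2), under the 11.33 of ESC. Dppa4 rose by 1.70 ± 0.11 (SE), or 3.26-fold, from a level in GSC that was already high, with limma's adjusted p = 2.69e-11.

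Dppa3 rose by 2.27 ± 0.59 (SE), or 4.81-fold, in the same comparison, with limma's adjusted p = 0.00287. Its SE was the widest of the 4 because gPS replicate 1 stood 3.90 log2 units under the mean of the other gPS arrays, 11.52 ± 0.27 (SD, n = 4). The rise was seen in 4 of 5 gPS arrays, and without replicate 1 it was 3.05. With the 2 compared groups alone in the fit, limma's adjusted p was 0.0351. For the other members every gPS array lay above every GSC array.

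Markers of the germ line moved the other way in these arrays. The list of 10 germ cell markers averaged 9.99 to 10.07 (log2) in the GSC arrays and 5.06 to 5.81 in the gPS arrays. All 10 were called lower in gPS cells, where 20.0% of all genes were called in either direction. The 12 fibroblast markers averaged 6.94 to 7.16 in GSC and 6.85 to 8.12 in gPS arrays, ranges that overlap, with gPS replicate 2 the highest. Dppa2, Dppa3, Dppa4 and Dppa5a had at most 5.70 in any MEF array.

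Whether members changed by unequal amounts was tested with exact two-sided permutation tests of their difference within each array, over 18 pairs (6 in each of 3 comparisons). In gPS cells against GSC, Dppa2 rose 2.79 log2 units more than Dppa4, its partner, by the group means, with exact permutation p = 0.0357 and adjusted p = 0.0714. Against the GSC means, the excess was 3.52, 2.60, 2.65, 2.62 and 2.56 in gPS arrays 1 to 5, widest in replicate 1. That is the smallest p that 5 arrays against 3 allow, so that no pair could pass 0.05 unless more of the 18 had reached it. 9 of the 18 pairs reached it, 4 of them in this comparison, and 0 had an adjusted p under 0.05. The rises of Dppa2 and Dppa5a differed by -0.060 (Dppa2 minus Dppa5a), and that difference took either sign when single arrays were left out (from -0.21 to 0.15). Because Dppa5a in gPS cells lay near the top of the scale, where compression was not tested, the 3 pairs with Dppa5a in each comparison carry that limit.

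Against ESC, 1 of the 4 members was called in gPS cells, where 4.49% of all genes were called and 2.36% were called higher. Dppa3 was higher by 2.84 ± 0.59 (log2, SE), or 7.16-fold, with limma's adjusted p = 0.00121, and 4 of 5 gPS arrays were above every ESC array. With gPS replicate 1 left out the difference was 3.62, and leaving out single arrays gave 2.60 to 3.62. Replicate 1 itself stood 0.28 under the ESC mean. Dppa3 in MEF was 4.37 to 4.71, below every ESC and gPS array.

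The other members came within 1 log2 unit of ESC. Dppa2 differed by -0.50 in gPS minus ESC (95% confidence interval -0.92 to -0.086, limma's adjusted p = 0.0729). Its second probe set gave -0.66, with limma's adjusted p = 0.00657 over all probe sets, still under 2-fold. Dppa4 differed by -0.27 (interval -0.50 to -0.047, limma's adjusted p = 0.0722), and Dppa5a by 0.15 (interval -0.090 to 0.39, limma's adjusted p = 0.391). These intervals bound the differences, and a p over the threshold does not show equal levels. The fibroblast list averaged 5.08 to 5.28 in ESC arrays against 6.85 to 8.12 in gPS arrays. In gPS cells 9 of its 12 members were called higher, against 2.36% of all genes. The part of fibroblast RNA in the lower Dppa2 and Dppa4 values was not tested.

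The GSC comparison with ESC showed where the germline stem cells stood before any colony formed. 3 of the 4 members were called lower in GSC, where 23.3% of all genes were called and 10.2% were called lower. Dppa2 was lower by 5.00 log2 units, 31.9-fold (limma's adjusted p = 1.17e-13), and Dppa5a by 4.40, 21.2-fold (limma's adjusted p = 1.61e-16). Dppa4 was lower by 1.97, 3.93-fold (limma's adjusted p = 1.52e-11). Dppa3 was 0.57 ± 0.66 (log2, SE) higher in GSC, with limma's adjusted p = 0.508, although the 3 GSC arrays lay above the 3 ESC arrays. That p used a spread that included gPS replicate 1. With that array left out of the fit, an alternative added after seeing the data, it was 0.00856 (limma, adjusted). With only GSC and ESC fitted it was 0.00154 (limma, adjusted). Both were for the same difference, which was under 2-fold.

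**Figure D2:**
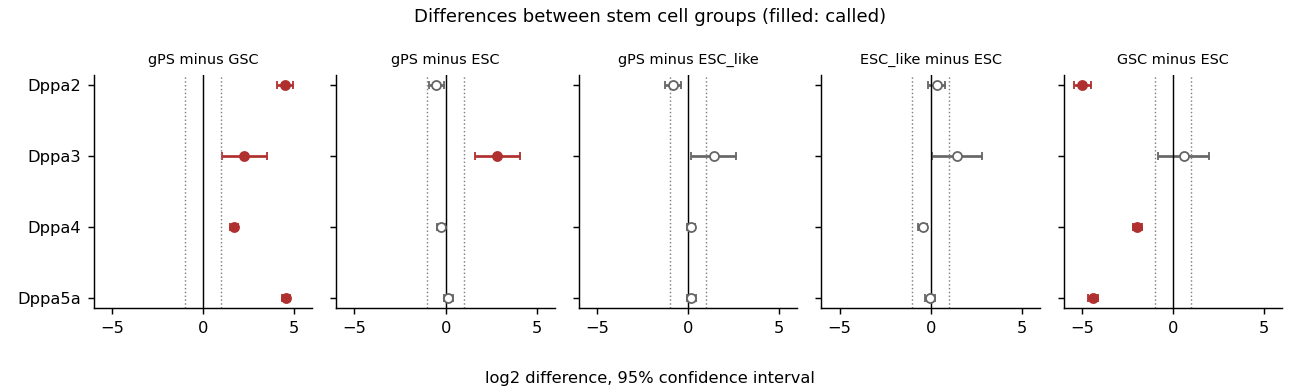
Log2 difference of each Dppa gene in 5 comparisons (horizontal axis), with limma's 95% confidence interval as the bar. Filled points passed the adjusted p and the 2-fold minimum (dotted lines), so that Dppa2, Dppa4 and Dppa5a are filled in the 2 comparisons with GSC, and Dppa3 in gPS minus GSC and gPS minus ESC.

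Against ESC_like cells, which also came from testis, 0 of 4 members were called in gPS cells with limma, where 4.85% of all genes were called. At an unadjusted p under 0.05 there were 2, Dppa2 and Dppa3. Dppa2 was lower in gPS cells by 0.83 (log2), or 1.78-fold, with limma's adjusted p = 0.00363 and every gPS array under every ESC_like array. Dppa3 was higher by 1.41 ± 0.59 (SE), with limma's adjusted p = 0.0799. Without gPS replicate 1 the Dppa3 difference was 2.19, and limma then called it (adjusted p = 4.97e-09). Dppa4 differed by 0.16 (interval -0.068 to 0.38) and Dppa5a by 0.18 (interval -0.058 to 0.42).

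ESC_like cells against ESC likewise had 0 of 4 members called with limma, where 7.21% of all genes were called, and 2 at an unadjusted p under 0.05. Dppa3 was 1.43 ± 0.66 (log2, SE) higher in ESC_like cells, with limma's adjusted p = 0.114 and no overlap of arrays. With gPS replicate 1 left out of the fit, or with only these groups fitted, limma's adjusted p for the same difference was 2.09e-06 and 3.44e-07. The first of these alternatives was added after seeing the data. Dppa4 was lower in ESC_like cells by 0.43 ± 0.12 (log2, SE), with limma's adjusted p = 0.0105 and under 2-fold. Among the pluripotent groups, the fibroblast list was highest in the ESC_like arrays, at 8.37 to 8.66 against 5.08 to 5.28 in ESC. Its part in the Dppa4 value was not tested. Dppa2 differed by 0.33 (interval -0.14 to 0.79) and Dppa5a by -0.032 (interval -0.30 to 0.24).

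The somatic groups gave the reference floor. All 4 members were called higher in GSC than in NSC (26.8% of all genes called, 14.6% higher) and than in MEF (28.4% called, 15.5% higher). The differences from NSC and MEF were 5.18 and 4.38 log2 units for Dppa4, 4.23 and 3.96 for Dppa5a, 3.75 and 3.96 for Dppa3, and 2.26 and 2.61 for Dppa2. The second Dppa2 probe set gave 3.43 and 3.23. Differences of separate probe sets from a background level are not ranked here. ESC were higher than NSC (21.4% of all genes called, 10.0% higher) and MEF (23.4% called, 10.9% higher) for all 4 members too. For ESC the differences were 8.63 and 8.37 for Dppa5a, 7.26 and 7.61 for Dppa2, 7.16 and 6.35 for Dppa4, and 3.18 and 3.39 for Dppa3. Since NSC and MEF lay at or near background, these are rough sizes. The comparisons with gPS, GSC and ESC share samples, so that the values above are not independent of each other.

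Few genes stood as far apart in gPS replicate 1 as Dppa3. Of 18193 genes, 14 lay at least 2 log2 units below all other gPS arrays there and 7 lay that far above. In gPS replicate 2 the counts were 1 and 6, and in replicates 3 to 5 they were 0. Dppa3 had the third-widest gap below, 3.49 log2 units. Only Baiap2l1, an actin-regulating adaptor, at 3.56, and Esrp1, an epithelial splicing factor, at 3.49, had wider ones. These 2 genes were picked out after their values were seen.

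Among the 14 were Prdm1 and Tfap2c, transcription factors that specify primordial germ cells, the embryonic precursors of the germ line. Their gaps, 2.69 and 2.69 log2 units, were narrower than those of Klhl13 (3.32), Sfmbt2 (3.13) and Slc40a1 (3.08). The rest of the 14 were Rhox6, Gab1, Nfkbiz, Myb, Gm13261 and Zc3hav1. Prdm1 was at 5.33 (log2) in gPS replicate 1 and 8.03 to 8.33 in the other gPS arrays. Tfap2c was at 7.18 against 9.87 to 10.47. In the same array the pluripotency genes Pou5f1 and Nanog, at 12.77 and 11.74, fell inside the range of the other gPS arrays. Other genes of the pluripotency list left that range, 5 below and 8 above. Fbxo15 was at 10.06 against 10.93 to 11.40, and Klf2 at 10.54 against 11.13 to 12.06. Tbx3 was at 9.62 against 7.80 to 8.42, and Klf4 at 11.72 against 10.29 to 10.63.

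Of the 9 measured genes of the primordial germ cell list, 5 lay below all other gPS arrays in replicate 1 and 4 lay within their range. Over all genes, 23.5% lay below all other gPS arrays there and 26.7% above, so single genes leave the range of the other 4 arrays often and the sizes matter more than the count. Besides Prdm1 and Tfap2c these were Ifitm1, an interferon-induced membrane protein, at 9.72 against 11.53 to 12.23, Ifitm3, at 10.87 against 11.15 to 11.66, and Lin28a, an RNA-binding protein, at 10.68 against 10.87 to 11.26. Prdm14, Dnd1, Alpl and Kit were inside the range. The pluripotency list had 5 genes below, 8 above and 7 within. Marker lists of other cells also differed in this array: the germ cell list averaged 5.81 and the neural list 5.86, each the highest of the gPS arrays (lowest 5.06 and 4.50), and the fibroblast list averaged 7.11, inside the gPS range of 6.85 to 8.12. The part of these in the Dppa3 value was not tested.

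**Figure D3:**
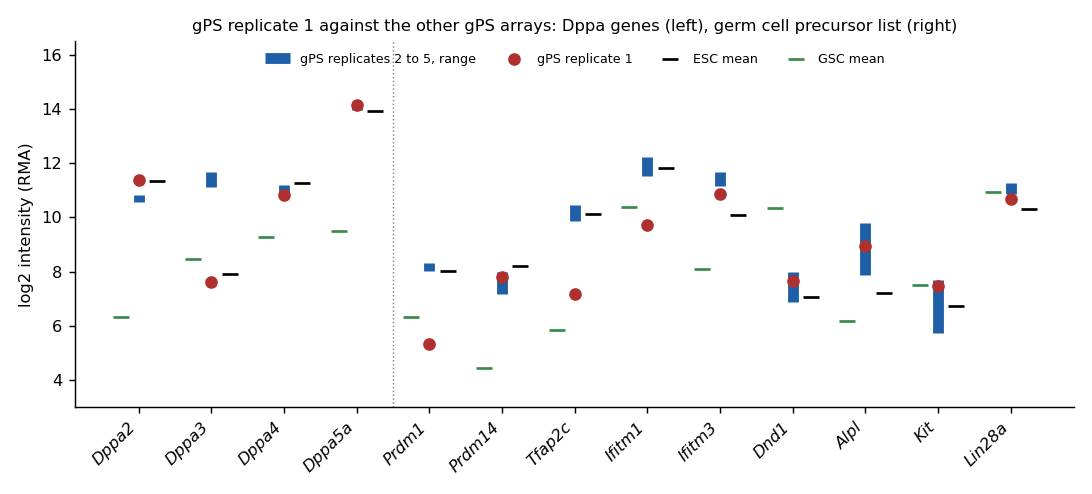
Log2 intensity (vertical axis) of the 4 Dppa genes and the 9 measured primordial germ cell genes (horizontal axis) in gPS replicate 1 (red points), against the range of gPS replicates 2 to 5 (blue bars), with ESC and GSC means as black and green ticks. Replicate 1 lies far under the blue bar for Dppa3 (7.62 against 11.11 to 11.70), Prdm1, Tfap2c and Ifitm1, and above it for Dppa2. By less, it lies below the bar for Dppa4 (10.82 against 10.92), Ifitm3 and Lin28a, and above it for Dppa5a (14.16 against 14.12).

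The genes next to the members on the chromosome were read from RefSeq's gene table (GRCm38.p6) within 3 positions on either side. On chromosome 16 Dppa4 and Dppa2 lie beside each other, followed by the non-coding gene Gm5485 and then by Morc1, an ATPase needed to silence transposons in male germ cells. Morc1 had mean log2 levels of 9.19 in GSC, 10.61 in gPS, 11.12 in ESC, 10.64 in ESC_like, 2.86 in NSC and 3.07 in MEF. It rose by 1.42 ± 0.12 (SE) from GSC to gPS cells (limma's adjusted p = 2.62e-09), close to the size for Dppa4 and well under that for Dppa2, which lies between the 2 in the table. Gm5485, at 3.41 in GSC and 3.51 in gPS cells (mean log2), and 6430553K19Rik, a non-coding gene on the side of Dppa4, at 2.96 and 2.82, were under the median of all values and not called.

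On chromosome 6 Dppa3 follows Gdf3, a TGF-beta family ligand of pluripotent cells. Gdf3 was at 5.34 (mean log2) in GSC and at 10.33, 10.19 and 10.10 in gPS, ESC and ESC_like cells, and it rose by 4.99 ± 0.15 (SE) from GSC to gPS cells (limma's adjusted p = 2.18e-16). Gdf3 was lower in GSC than in ESC by 4.86, whereas Dppa3 was 0.57 higher in GSC. In gPS replicate 1 Gdf3 was 9.85, below the other gPS arrays (10.10 to 10.66) and 0.60 under their mean, where Dppa3 was 3.90 under. Apobec1, the RNA-editing deaminase on the far side of Gdf3, fell by 1.06 from GSC to gPS cells.

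On chromosome 9 Dppa5a is followed by Ooep, a KH-domain protein of the egg, and then by Ddx43, an RNA helicase. Ooep had mean log2 levels of 5.82 in GSC, 10.49 in gPS, 10.08 in ESC and 11.10 in ESC_like cells, and it rose by 4.67 ± 0.21 (SE) from GSC to gPS cells (limma's adjusted p = 8.04e-14). Its rise was like that of Dppa5a, but its GSC level was that of MEF (5.81) and NSC (5.74), whereas Dppa5a in GSC was well over both. Ddx43 fell by 3.18 ± 0.22 (SE), from 9.49 to 6.31. On the other side, Gsta2, Omt2a and Omt2b differed by -0.17, -0.058 and 0.11 between gPS cells and GSC and were not called. Of the 10 measured neighbours of the 3 loci, 0 were called between gPS cells and ESC with limma, where 4.49% of all genes were called, so that the count is near the background and is no result about them. At an unadjusted p under 0.05 there were 2, both also with limma's adjusted p under 0.05 but at less than 2-fold: Ddx43 at 0.87 and Morc1 at -0.51. Without gPS replicate 5, an alternative added after seeing the data, Ddx43 was called, at 1.03.

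**Figure D4:**
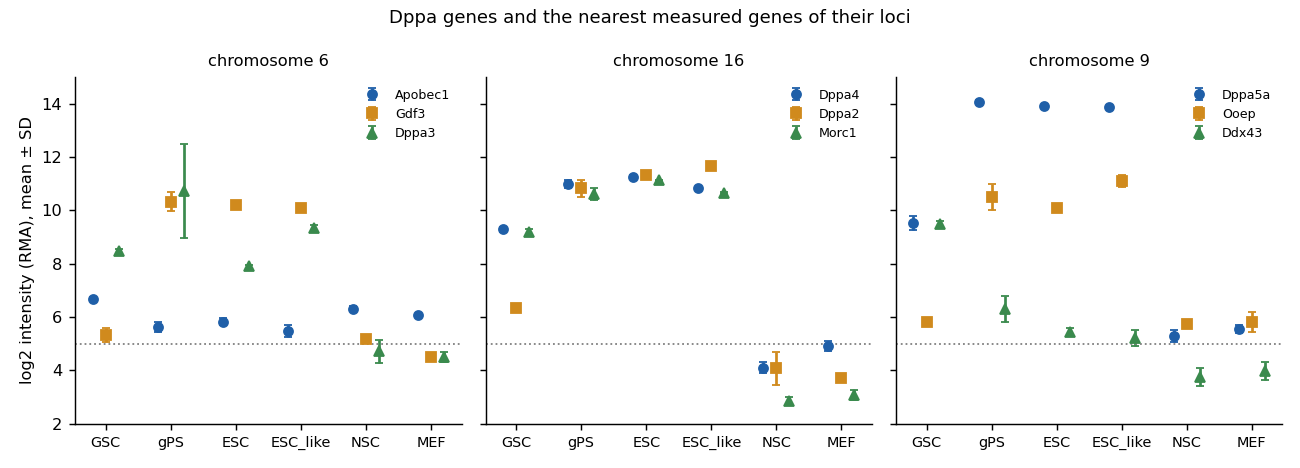
Mean log2 intensity with SD (vertical axis) of the Dppa genes and neighbouring genes at 3 loci, by group (horizontal axis), with points shifted sideways for each gene and the median of all values as a dotted line. Morc1 and Dppa4 are lower in GSC by a smaller step than Dppa2, Gdf3 is higher in ESC than in GSC where Dppa3 is not, and Ddx43 falls where Dppa5a and Ooep rise.

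The genes whose levels followed each member most closely were found among 9396 genes with a group mean above 7, by Pearson r over the 20 arrays. These arrays fall into 6 cell types, so that any gene high in pluripotent cells correlates with them, and the values describe likeness only. For Dppa4 the closest were Morc1 (0.995), Pycard (0.993) and Pou5f1, which encodes Oct4 (0.989). For Dppa2 they were Mkrn1 (0.993), Dhx16 (0.992) and Dnmt3l, a cofactor of DNA methylation (0.988). For Dppa5a they were the glucose transporter Slc2a3 (0.993), Mtm1 (0.989) and Thoc6 (0.988), with Mkrn1 next. For Dppa3 the closest fit was lower, at 0.951 for Kctd6, followed by Tfb1m and Fgd1.

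Kctd6 was lower in gPS replicate 1, at 8.09 against 8.79 to 9.26 in the other gPS arrays, in a much narrower range than Dppa3. Tfb1m, at 8.73 against 8.79 to 9.21, and Fgd1, at 8.42 against 9.08 to 9.79, were lower there too. The search used arrays that include gPS replicate 1, so it favoured genes low there, and these values are no separate observation. Between members, r was 0.984 for Dppa2 and Dppa5a, 0.975 for Dppa4 and Dppa5a and 0.936 for Dppa2 and Dppa4, while Dppa3 had r of 0.786 with Dppa2, 0.868 with Dppa4 and 0.857 with Dppa5a.

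The pathways tied to each member were described from lists of known genes. Their counts stand beside 20.0% of all genes called between gPS cells and GSC, 9.10% being higher. Between gPS cells and ESC these shares were 4.49% and 2.36%. For Dppa3 the list held DNA methylation genes and Uhrf1. Of 14 measured genes, 5 rose, 1 fell and 8 were not called from GSC to gPS cells (median difference 0.43, against 0.021 for all genes). The methylcytosine oxidase Tet1 rose by 6.85 ± 0.12 (log2, SE), Dnmt3l by 5.51 ± 0.15 and Tet2 by 2.86 ± 0.19, whereas Setdb1 and Tet3 differed by -0.15 and 0.16. Uhrf1, named here for its known link to Dppa3 and not by the naming rule, was at 9.69, 10.10 and 10.53 in GSC, gPS and ESC (mean log2). Uhrf1 differed by 0.42 between gPS cells and GSC, with limma's adjusted p = 0.0208. Between gPS cells and ESC it differed by -0.43, with limma's adjusted p = 0.0349. Both differences were under 2-fold. Between gPS cells and ESC, where Dppa3 differed 7.16-fold, 0 of these 14 genes were called with limma, near the 4.49% of all genes called. 7 had an unadjusted p under 0.05 and 6 an adjusted p under 0.05, at less than 2-fold. Of these 6, Tet1 (-0.44, limma's adjusted p = 0.0120) and Uhrf1 were lower in gPS cells and the rest higher. Setdb1 at 0.67 (limma's adjusted p = 0.000751) and Ehmt1 at 0.53 (limma's adjusted p = 0.00391) had the lowest p among the genes higher in gPS cells, while the smallest differences were those of Dnmt1 (0.042) and Dnmt3l (-0.045).

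The primordial germ cell list, also tied to Dppa3, had 9 measured genes, of which 6 rose, 1 fell and 2 were not called from GSC to gPS cells (median 1.28). Tfap2c rose by 3.72 ± 0.46 (log2, SE), Prdm14 by 3.27 ± 0.18 and Ifitm3 by 3.23 ± 0.14, while Dnd1, which protects germ cell messages, was the 1 that fell. Lin28a and Kit differed by 0.034 and -0.52. With single arrays left out, added after seeing the data, 5 or 6 rose: Ifitm1 was not called without gPS replicate 3 or 5, nor Prdm1 without GSC replicate 2, and Tfap2c was 4.32 without gPS replicate 1. Between gPS cells and ESC, 2 rose (Alpl by 1.61 ± 0.28 and Ifitm3 by 1.23 ± 0.14), 0 fell and 7 were not called, Tfap2c among them at -0.57 (interval -1.52 to 0.38). That value rested on gPS replicate 1, without which it was 0.026, and Prdm1 likewise went from -0.42 to 0.15.

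For Dppa2 and Dppa4, the genes of the two-cell embryo state were poorly covered: 7 of the 16 listed were measured, and the Zscan4 genes were not analysed here. From GSC to gPS cells 1 rose, 0 fell and 6 were not called (median 0.25). With 9.10% of all genes called higher, that count is near the background and is no result about them. The 1 that rose was Usp17la, from 3.50 to 4.76 (mean log2), both under the median of all values. It was lower in gPS cells than in ESC, where it was at 6.47, by 1.71 ± 0.16 (SE). Duxf3, the mouse Dux gene, lay at 3.20 in GSC and 3.19 in gPS cells.

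For Dppa5a, 9 KH-domain relatives and genes of the egg were measured, and 4 rose, 1 fell and 4 were not called from GSC to gPS cells (median 0.43). Ooep led, followed by Khdc3, from 4.96 to 6.84 (mean log2), and Zbed3, which rose by 1.32 ± 0.11 (SE). Without single arrays 3 or 4 rose, since Zp3, at 1.03, fell under 2-fold without GSC replicate 1 or 3 or gPS replicate 3 or 5. Khdc1a and Khdc1b differed by -0.082 and 0.32, at levels under the median of all values. Between gPS cells and ESC only Khdc3 was called, lower by 1.26 ± 0.27 (SE) in gPS cells.

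Of 20 other pluripotency genes, 16 rose, 0 fell and 4 were not called from GSC to gPS cells (median 2.85), against 4 of 4 Dppa members. Tdgf1, Nanog and Nr0b1 rose by 8.11, 7.71 and 6.62, from levels in GSC of 3.85, 3.96 and 3.13, under the median of all values. Between gPS cells and ESC, 2 of the 20 were higher, 4 lower and 14 not called (median -0.39, against 0.019 for all genes). Zfp42, the Rex1 gene, was lower by 2.89 ± 0.12 (SE) and Tcl1 by 1.73 ± 0.16, while Klf4 was higher by 1.45 ± 0.23. Without gPS replicate 5 only 1 was higher, Utf1 (0.96) being under 2-fold, and without gPS replicate 4 or ESC replicate 2 only 3 were lower, Pramel7 (-0.99 and -0.87) being under 2-fold.

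RefSeq's table also lists copies of 2 members: the pseudogenes Dppa5b and Dppa5c on chromosome 9 and Dppa3-ps on chromosome X. Whether the Dppa3 and Dppa5a probe sets also read transcripts of these copies was not tested.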

How the data were processed

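RNA of 20 samples, labelled with biotin by the One-Cycle kit, was read on Affymetrix arrays, per the labels' protocols. Each deposited value is a log2 intensity of a probe set, which the authors obtained by RMA (background correction, quantile normalization, probe summary), per the submitters' processing notes. Versions, and whether all arrays were processed together, are not given in the sources used here. Values were used as deposited. The 45101 probe sets comprised 64 controls, which were left out of the fits. Of the rest, 34945 had a single gene symbol (34741 matched by gene ID to RefSeq's table), 932 had several and 9160 had none. Each of 18193 genes was read by its probe set with the highest mean, and 9010 had a choice.

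Means of 6 groups were fitted with limma 3.58.1 (lmFit, eBayes; R 4.3.3), tested on simulated data first. Members and lists were chosen with earlier results of these data known. Named were the members, genes within 3 positions, the 5 most correlated genes, and per list and comparison up to 3 called and 2 uncalled genes. Alternatives were other normalization, weights, filters and thresholds, probe-set averages, a replicate block and left-out arrays (for list genes and neighbours added after seeing the data).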

Additional observations from a re-analysis of the deposited data

Results flagged for a closer look

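Among the 5 gPS arrays, Dppa3 in replicate 1, at 7.62 (log2), lay far from the rest, which spanned 11.11 to 11.70. Its gap to the nearest array was 0.857 of the whole range, over Dixon's 95% critical value of 0.710 for 5 samples. Such a test flags about 1 in 20 groups by chance. For Dppa2, Dppa4 and Dppa5a the gPS arrays gave no such gap, the nearest being Dppa2 at 0.678, where replicate 1 was the highest array.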

How the results depend on the processing

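Of 772 alternatives for the 36 member differences, 763 kept the direction and the side of the threshold and 9 passed it where the main setting had not. For gPS against ESC_like cells, Dppa3 was called with array weights (1.98), without gPS replicate 1 (single arrays left out gave 1.17 to 2.19) and, chosen after seeing the data, without gPS arrays 1 and 2 (2.32), and Dppa2 without those arrays (-1.03) and with no fold minimum (-0.83). The members called there were then 1, 0 to 1, 2 and, with no fold minimum, 1. For ESC_like cells against ESC, Dppa3 (1.43) was called with array weights, with only the compared groups and, added later, with gPS array 1 left out of the fit, and Dppa4 (-0.43) with no fold minimum, in each case 1 member. The small difference between the rises of Dppa2 and Dppa5a was 0.067 with averaged probe sets and -0.21 to 0.15 with single arrays left out, and for Dppa4 and Dppa5a in gPS against ESC_like cells it was -0.11 to 0.040 with single arrays left out. Counts of all genes called moved by over 1.5 times with probe sets in place of genes or with no fold minimum: from 3647 to 6213 and 9253 (gPS minus GSC), 817 to 1494 and 4555 (gPS minus ESC), 4241 to 7426 and 9143 (GSC minus ESC), 882 to 1645 and 5339 (gPS minus ESC_like), 1312 to 2350 and 5131 (ESC_like minus ESC), 4877 to 8742 and 9721 (GSC minus NSC), 5169 to 9136 and 9951 (GSC minus MEF), 3898 to 6858 and 8615 (ESC minus NSC) and 4252 to 7508 and 8835 (ESC minus MEF). The replicate numbers do not pair the samples (correlations of same-numbered deviations from -0.17 to 0.27). The replicate block gave 1.64, 2.21 and 0.78 for Dppa3 in gPS minus GSC, ESC and ESC_like, and changed no member's call. Levels of Dppa2 and Dppa4 in somatic cells lay near background, and those of Dppa5a in pluripotent cells near the top of the scale.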
